A study of Mus musculus with 67 samples.

Results

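The 6 genes described here, *Ifi203*, *Ifi204*, *Ifi205*, *Mndal*, *Aim2* and *Pyhin1*, belong to the Ifi200 (PYHIN) family of the mouse, a cluster of interferon-inducible genes. They were followed in T cells sorted from the hypothalamus and from the rest of the brain, as 6 of the 24461 genes in the table of a sequencing experiment with 59 libraries. That table also holds 6 other genes of the family, *Ifi202b*, *Ifi207*, *Ifi208*, *Ifi211*, *Ifi213* and *Ifi214*, which are given beside them. *Pyhin1* stands in RefSeq as *Ifi209*. The genes were picked by name for their levels in the strains of these same libraries, so levels of the strains set side by side are a description and carry no test. Whether a difference between tissues or cell types differs by strain was fitted and tested over all genes. For the members nothing is read from those calls.

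Proteins of this family combine a pyrin domain, through which they meet partners in signaling, with HIN domains that bind DNA. *Aim2* encodes a receptor that binds double-stranded DNA in the cytosol and assembles the inflammasome with the adaptor Asc and caspase-1, and *Ifi204* encodes a sensor that signals through Sting toward type I interferon. *Mndal*, *Ifi203*, *Ifi205* and *Pyhin1* encode family proteins found mainly in the nucleus, and inbred mouse strains are known to differ in the copies and sequence of the locus.

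The study compared T cells of mice on a high-fat high-sugar diet (HFD in the labels) and on a standard diet (SD). In the replicated experiment, 29 libraries came from activated conventional T cells (Tconv, sorted as CD4+CD25-Foxp3GFP- cells with high CD44 and low CD62L) and 30 from Tregs (CD4+CD25+Foxp3GFP+), all of Foxp3GFP reporter mice. Each library held sorted cells of several pooled mice, so that values belong to pools and not to single animals. A pilot experiment gave 8 hypothalamic libraries, 1 per group, without replicates.

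The BalbC mice of the 59 libraries were female and the BL6 mice (C57Bl/6J) male, so that strain and sex cannot be told apart. Hypothalamic Tconv gave 4 libraries for each of BL6 HFD, BL6 SD, BalbC HFD and BalbC SD, and hypothalamic Tregs again gave 4 for each. Tconv of the rest of the brain, labelled brain, gave 3 libraries for BL6 HFD, 4 for BL6 SD, 3 for BalbC HFD and 3 for BalbC SD. Tregs of the rest of the brain gave 4 libraries for each of BL6 HFD, BL6 SD and BalbC HFD and 2 for BalbC SD. The labels give neither the age of these mice nor the weeks of diet. In the pilot, naive CD4+CD44- T cells and Tregs came from 9 pooled female Foxp3GFP BalbC mice after 16 weeks of HFHSD or regular diet, and CD4+ and CD25hi T cells from 7 pooled female ob/ob mice, which lack leptin, or 7 pooled female Bl6 mice. Naive and CD44- are the words of the label, while the paper describes these cells as CD25- with low to intermediate CD44. The labels name no batch.

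The authors quantified the 59 libraries with Salmon, and the deposited estimated counts were summed over the RefSeq names of a gene and scaled to equal library totals (CPM). Totals ran from 13196697 to 20538319 counts in hypothalamic Tconv and from 11340062 to 28187003 in Tconv of the rest of the brain. Tregs had 1724154 to 38482282 counts in the hypothalamus and 8938478 to 24985601 in the rest of the brain. The median number of genes with a count was 5803 in hypothalamic Tregs, against 10100 in Tregs of the rest of the brain, 10892 in hypothalamic Tconv and 15118 in Tconv of the rest of the brain. In bulk libraries, fewer cells with a transcript and less of it per cell cannot be told apart. Intervals and floors given below cover counting error only.

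Some hypothalamic Treg libraries stood apart from the rest by their marker genes. The BL6 SD library of pool 11_15 had a summed level of 5 T cell markers of 166 CPM, led by *Cd3g* at 60.0 CPM, with *Il2ra* at 0 and *Foxp3* at 1.21 CPM. Its endothelial markers summed to 3917 CPM, led by *Cldn5* at 2122 CPM, and its macrophage markers to 2340 CPM, led by *Lyz2* at 1682 CPM. The BalbC SD library of pool 32_36 held 18101 CPM of 5 microglial markers, with *Sall1* at 0, beside 4134 CPM of T cell markers and 0.0977 CPM of *Foxp3*. The BL6 HFD library of pool 06_10 and the BL6 SD library of pool 43_47 had T cell markers at 7036 and 6050 CPM but *Foxp3* at 0.429 and 3.48 CPM. By the sum of 4 Treg markers, led by *Ikzf2*, 3 of these libraries were like other Tregs, at 3211 (32_36), 2395 (06_10) and 1783 CPM (43_47), and pool 11_15 was at 35.1 CPM. In the other 26 Treg libraries the Treg markers summed to 740 to 3231 CPM, the T cell markers to 4108 to 8595 CPM and the microglial markers to 0.0567 to 1224 CPM. Some values that rest on hypothalamic Tregs are also given without the first 2 of these or without all 4. They are levels of members, calls of *Aim2* and likeness values. Other values there include all libraries unless stated. The BalbC SD library of pool 32_36 also had 0 counts of *Xist*, which the other 27 BalbC libraries held at 0.291 CPM or more.

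Because the genes are close paralogues, reads can be shared between them. Of the 31-base stretches in the GENCODE transcripts of each gene, 78.9% recur in another family gene for *Ifi211*, 46.8% for *Pyhin1*, 28.6% for *Ifi204*, 24.0% for *Mndal*, 22.1% for *Ifi205* and 7.21% for *Ifi203*. *Aim2* and *Ifi202b* share 0% with the family. *Pyhin1* shares its stretches with *Ifi214*, and *Ifi204* most often with *Ifi211* (18.9%). Stretches of 100 bases recur for 16.9% of *Pyhin1* and 10.7% of *Ifi204*. The reference is that of C57BL/6J mice, and the part of strain differences in sequence in the mapping was not tested.

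The family genes lie side by side on chromosome 1, in a stretch of 682 kb at chr1:173349547-174031755 (GRCm38.p6) with 14 RefSeq genes. *Aim2* (chr1:173349547-173466040) and *Ifi205* (chr1:174011998-174031755) mark its ends. *Pyhin1* (chr1:173630859-173647928), *Ifi204* (chr1:173747293-173767069), *Mndal* (chr1:173857215-173880382) and *Ifi203* (chr1:173920400-173942866) lie between them. The Slam cluster, a group of T cell surface receptors, was followed as a list of its own.

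On the length-corrected scale of the deposited TPM, the levels of the 6 genes over all 59 libraries fell into 3 tiers. *Mndal* had a median of 347 TPM, followed by *Ifi203* at 147 and *Pyhin1* at 143 TPM. *Ifi204* had a median of 13.2 TPM and *Aim2* one of 7.21 TPM. *Ifi205* was close to absent, with a median of 0.0344 TPM and 3 counts or fewer in 45 of the 59 libraries. *Mndal* and *Ifi203* had more than 3 counts in every library, while *Pyhin1* was at or under 3 counts in 3, *Ifi204* in 4 and *Aim2* in 14. Among the other family genes, *Ifi214* was the most abundant with a median of 65.1 TPM, ahead of *Ifi208* at 61.1 TPM. Their order differed by strain, with *Ifi208* at a median of 182 and *Ifi214* at 73.9 TPM in BL6 Tconv of the rest of the brain and at 44.7 and 78.2 TPM in BalbC.

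**Figure D1:**
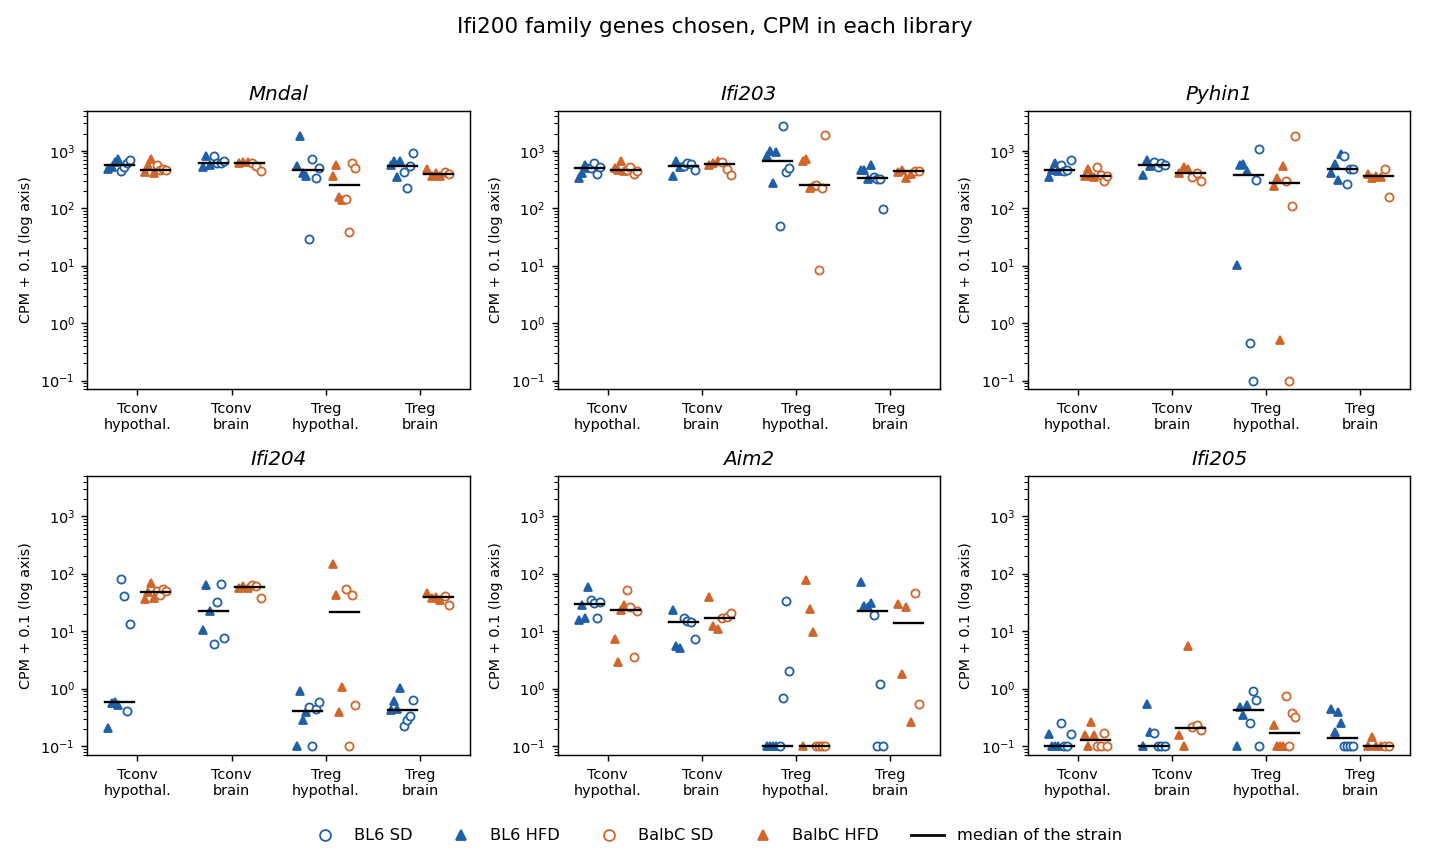
Level of each of the 6 chosen genes in every one of the 59 libraries, as CPM + 0.1 on a log axis, by cell type and tissue, with strain by color, diet by symbol and a bar at the median of each strain. *Ifi204* of Tregs in the rest of the brain runs from 0.120 to 0.904 CPM in BL6 and from 28.4 to 45.8 CPM in BalbC, while *Mndal* and *Ifi203* overlap between the strains in each panel.

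On the CPM scale *Ifi204* was the member whose strain ranges did not overlap, and this held in Tregs of the rest of the brain. BalbC libraries held it at 28.4 CPM or more in Tconv of both tissues and in Tregs of the rest of the brain. BL6 libraries held it at a like level in some Tconv and at under 1 CPM in every Treg library. In Tregs of the rest of the brain, BL6 HFD pools had 0.317, 0.502, 0.332 and 0.904 CPM and BL6 SD pools 0.120, 0.180, 0.233 and 0.520 CPM. BalbC HFD pools there had 45.8, 38.3, 38.7 and 35.0 CPM, and BalbC SD pools 40.6 and 28.4 CPM. The strains did not overlap, and the ratio of the medians, 38.5 over 0.324 CPM, was 119.

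In hypothalamic Tregs, BL6 libraries had *Ifi204* at 0 to 0.813 CPM with a median of 0.315 (n = 8). BalbC HFD pools had 149, 42, 0.285 and 0.956 CPM and BalbC SD pools 54.5, 0, 42.7 and 0.425 CPM. BalbC libraries thus fell into a high and a low set, and the low set overlapped BL6. Without the 2 libraries that stand apart, the medians were 0.284 CPM in BL6 and 42 CPM in BalbC (n = 7 each). Without the 4, BL6 had 0.185 to 0.813 CPM (n = 5).

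In hypothalamic Tconv, BL6 HFD pools had *Ifi204* at 0.103, 0.468, 0.480 and 0.414 CPM and BL6 SD pools at 81.8, 40.0, 0.307 and 13.3 CPM. BalbC HFD pools had 36.5, 47.3, 68.3 and 37.5 CPM, and BalbC SD pools 49.0, 42.3, 54.1 and 50.3 CPM. All 8 BalbC libraries were high, whereas BL6 was high in 3 SD libraries only, and 2 of these, at 81.8 and 40.0 CPM, lay within the BalbC range or above it. In Tconv of the rest of the brain, BL6 HFD pools had 10.5, 64.3 and 22.6 CPM and BL6 SD pools 5.78, 31.5, 67 and 7.37 CPM. BalbC HFD pools had 56.1, 60.9 and 57.3 CPM, and BalbC SD pools 63.5, 61.8 and 38 CPM. Here every BL6 library expressed the gene, with a wider spread than BalbC and overlapping it.

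Counted as strain ranges that do not overlap, 1 of the 6 members, *Ifi204*, met this in Tregs of the rest of the brain, against 0.788% of the genes tested there. In Tconv of the rest of the brain 0 of 6 did, against 12.4% of genes, in hypothalamic Tconv 0 of 6, against 1.33%, and in hypothalamic Tregs 0 of 6, against 0.143%. As this is the contrast that chose the genes, nothing is read from these counts. They come from CPM. On the TPM scale there were 3 such cases in place of 1 over the 6 genes and 4 strata, the others being *Mndal* (397 to 569 TPM in BL6, 270 to 335 in BalbC) and *Pyhin1* (149 to 253 and 91.0 to 129 TPM) in Tconv of the rest of the brain. With SD libraries alone there were 5, and with HFD libraries alone 3, in groups of fewer libraries. The share over all genes was not counted on TPM or for 1 diet alone, so nothing is read from these counts either.

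On the CPM scale the other 5 members overlapped between the strains in all 4 strata. The median of *Mndal* was 615 CPM in BL6 and 606 in BalbC Tconv of the rest of the brain, and 569 and 469 CPM in hypothalamic Tconv. *Ifi203* had medians of 542 and 593 CPM in Tconv of the rest of the brain and of 497 and 466 CPM in hypothalamic Tconv. *Pyhin1* was at 563 CPM in BL6 and 411 CPM in BalbC Tconv of the rest of the brain, with ranges of 372 to 703 and 293 to 520 CPM. In Tregs of the rest of the brain the BL6 and BalbC medians were 554 and 400 CPM for *Mndal*, 339 and 437 CPM for *Ifi203* and 483 and 358 CPM for *Pyhin1*. The spread was widest in hypothalamic Tregs, where *Ifi203* ran from 8.40 to 2746 CPM, *Mndal* from 29.5 to 1812 CPM and *Pyhin1* from 0 to 1819 CPM. The low ends, and the highest value of *Ifi203*, came from the libraries that stand apart. Without the 4, *Ifi203* ran from 272 to 985 CPM in BL6 and from 222 to 1866 CPM in BalbC, *Mndal* from 338 to 1812 and 140 to 608 CPM, and *Pyhin1* from 315 to 1077 and 0.399 to 1819 CPM.

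Within *Ifi203* both strains used the same RefSeq names, and in some strata in different shares. The longest, NM_001302649 with 4874 bases, took 13.1% to 47.1% of the gene's estimated counts in BL6 hypothalamic Tconv (median 25%) and 45.9% to 75.9% in BalbC (median 58.9%). The ranges overlapped in part. In Tregs of the rest of the brain the medians were 20.9% and 48.3%, and the ranges, 0% to 37.3% and 38.4% to 69.8%, did not overlap. Tconv of the rest of the brain overlapped, at 20% to 44.3% and 33.7% to 45.0%, and so did hypothalamic Tregs, with medians of 22.2% and 28.5%. Estimated counts of names rest on the reads that tell them apart, and the split was not measured otherwise.

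In Tconv, 3 of the other family genes separated the strains without overlap, while in Tregs of both tissues all 6 overlapped. Of all genes tested, 12.4% did not overlap in Tconv of the rest of the brain and 1.33% in hypothalamic Tconv. Some medians still lay far apart in Tregs. In the rest of the brain the BL6 and BalbC medians were 79.3 and 5.74 CPM for *Ifi213* and 0.340 and 13.6 CPM for *Ifi211*. For *Ifi208* they were 145 and 82.4 CPM there and 188 and 5.85 CPM in the hypothalamus. *Ifi202b*, whose protein lacks the pyrin domain and is known to restrain Aim2, was at 9.70 to 24.2 CPM in BalbC Tconv of the rest of the brain (n = 6) and at 0 to 0.109 CPM in BL6 (n = 7). In hypothalamic Tconv it was at 9.13 to 49.6 CPM in BalbC and at 0 in all 8 BL6 libraries. All 30 Treg libraries had 0 counts of it, so that BalbC Tconv were at least 47.5-fold higher than BalbC Tregs in the rest of the brain and at least 75.2-fold higher in the hypothalamus, by the median against a floor of 3 counts per library. *Ifi213* and *Ifi208* went the other way. *Ifi213* was at 110 to 187 CPM in BL6 and 6.12 to 11.2 CPM in BalbC Tconv of the rest of the brain, and *Ifi208* at 353 to 467 and 116 to 184 CPM. In hypothalamic Tconv *Ifi213* was at 48.2 to 139 and 9.09 to 16.2 CPM and *Ifi208* at 251 to 524 and 105 to 206 CPM, again without overlap. *Ifi211* and *Ifi214* overlapped between the strains in all 4 strata.

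**Figure D2:**
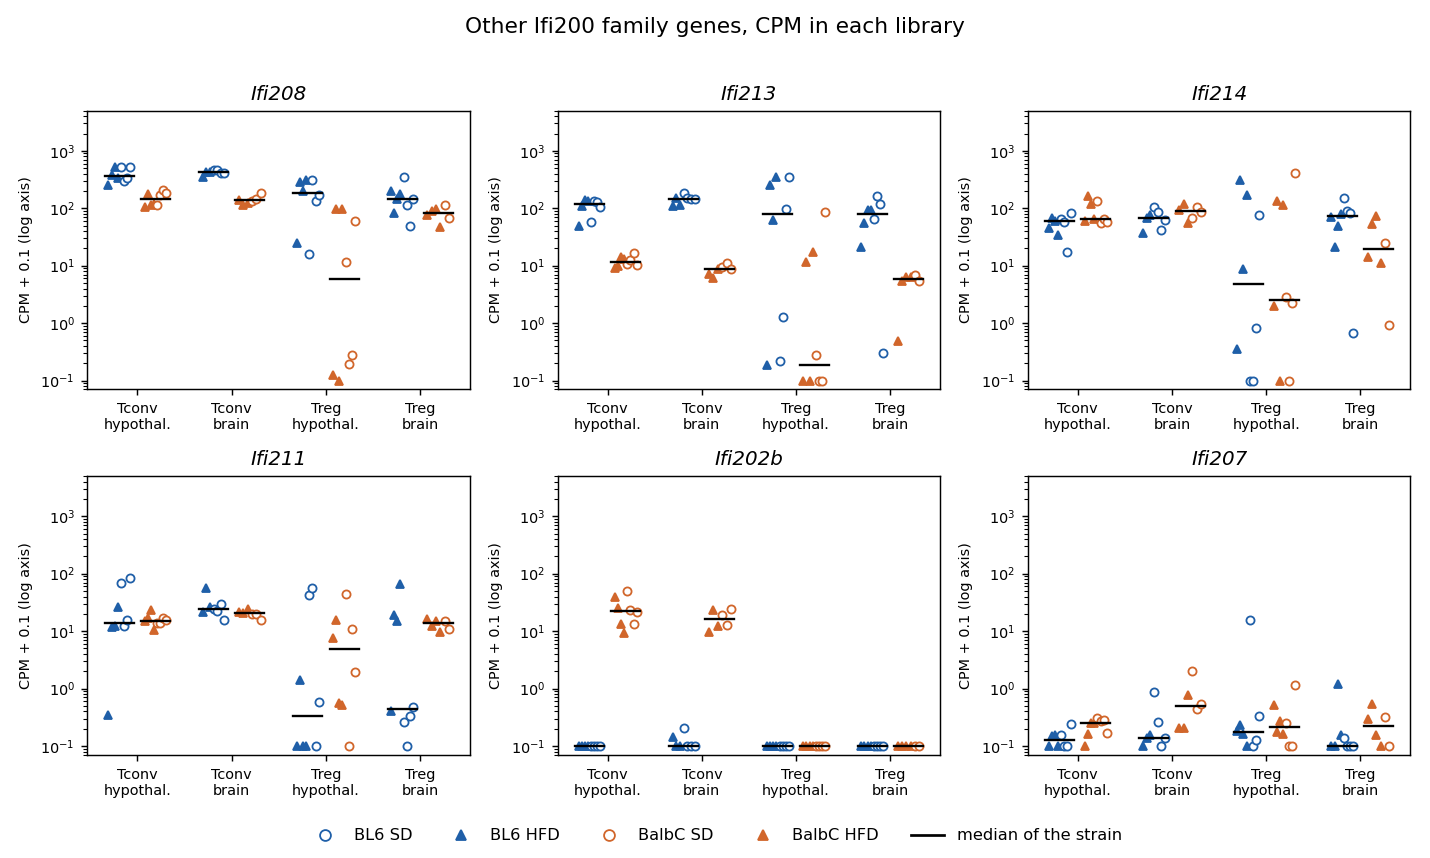
Level of the 6 other family genes of the table in every one of the 59 libraries, as CPM + 0.1 on a log axis, drawn as for the chosen genes. *Ifi202b* is above 3 counts in BalbC Tconv alone, and *Ifi213* and *Ifi208* lie higher in BL6 than in BalbC Tconv of both tissues.

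**Figure D3:**
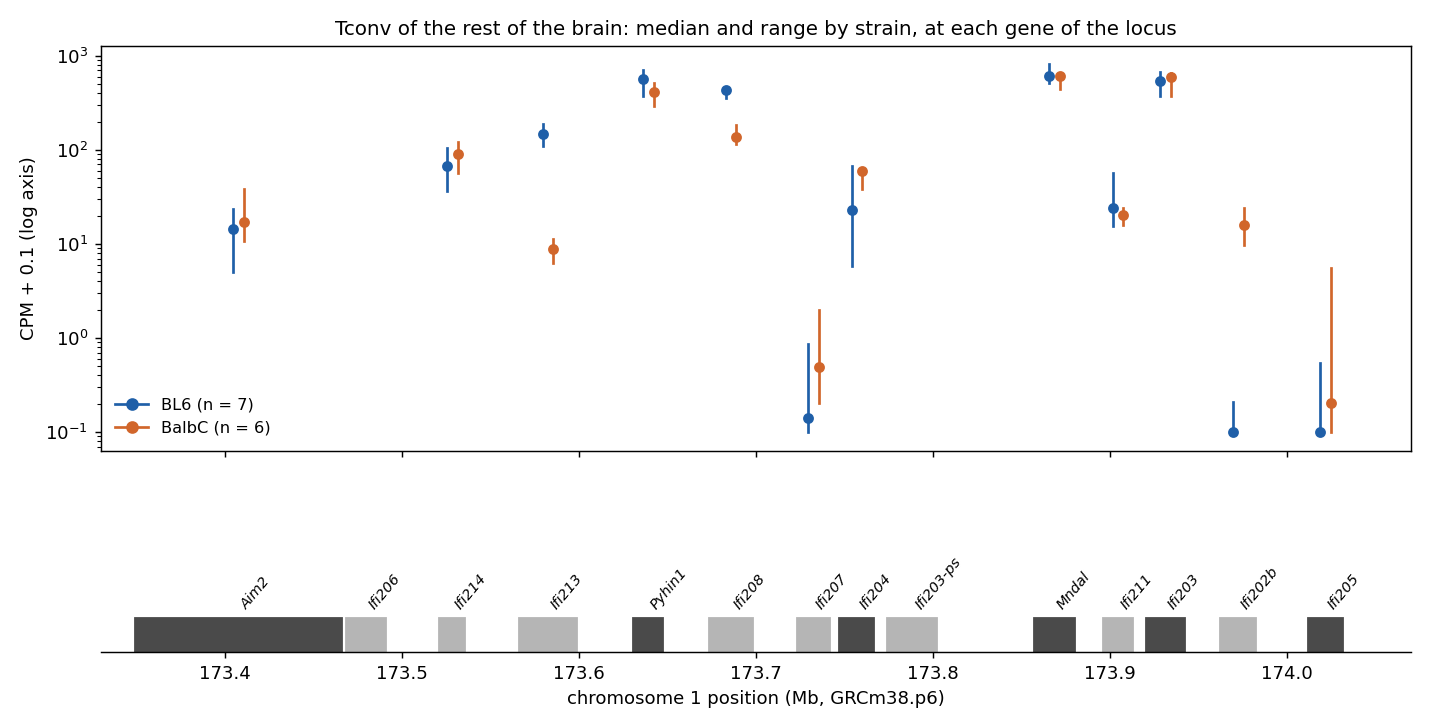
Median (point) and range (line) of CPM + 0.1 on a log axis in Tconv of the rest of the brain, 7 BL6 and 6 BalbC libraries, placed at the position of each gene on chromosome 1 in Mb (GRCm38.p6), above a map of the 14 RefSeq genes with the chosen 6 in dark gray. *Ifi213* and *Ifi208* are higher in BL6, *Mndal* and *Ifi203* overlap between the strains on this scale, and *Ifi202b* is higher in BalbC.

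The comparison of Tregs with Tconv asked which family genes follow the T cell type within a tissue. In the rest of the brain, *Ifi204*, the sensor upstream of Sting, was lower in Tregs, and so was *Ifi203* by a smaller amount. *Ifi205*, whose level was near 0 in almost all libraries, was called too. It had enough counts for the test only through Tconv libraries, so nothing is read from its call. *Aim2*, *Mndal* and *Pyhin1* did not pass the test. The fit had terms for strain, diet and cell type over 27 libraries. All 6 members were tested, and 3 of the 6, with *Ifi205* among them, were called lower in Tregs by the edgeR quasi-likelihood test. Over all genes tested 14% were called lower and 19.1% in either direction.

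*Ifi204* fell by 3.51 ± 0.53 on the log2 scale in Tregs of the rest of the brain (edgeR quasi-likelihood test, Benjamini-Hochberg adjusted p = 3.88e-05). In BL6, all 8 Treg libraries lay below all 7 Tconv libraries, 0.120 to 0.904 against 5.78 to 67 CPM. In BalbC, the 6 Treg libraries at 28.4 to 45.8 CPM overlapped the 6 Tconv libraries at 38 to 63.5 CPM. Within BL6 the log2 difference was −6.29 ± 0.72 and within BalbC −0.73 ± 0.68, which differ by 5.56 ± 0.94. Over all genes 4.84% were called for this difference between strains, a count of 674 that fell to 158 with pools of mice as a block and was 1072 without the BL6 SD pool 62_66. Of the 6 members 1 was called for it, and 0 with the block. Nothing is read from this, as the genes were chosen by strain. With that block, the log2 difference of *Ifi204* over both strains was −3.23 (adjusted p = 0.0212 by edgeR, against 6.14e-19 to 5.13e-04 in the other settings).

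*Ifi203* was at 97.8 to 564 CPM in BL6 Tregs of the rest of the brain and at 370 to 667 CPM in BL6 Tconv. In BalbC it was at 331 to 471 CPM in Tregs and 372 to 663 CPM in Tconv. The cell types overlapped in both strains, with lower medians in Tregs. *Ifi203* fell by 0.55 ± 0.16 on the log2 scale (edgeR adjusted p = 0.0154). With pools as a block the log2 difference was −0.51 with an edgeR adjusted p = 0.106 (0.0110 to 0.0212 in the other settings), and without the BalbC SD pool 37_41 it was −0.61 with an edgeR adjusted p = 0.0532.

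For *Ifi205*, 1 library carried the result. The BalbC HFD Tconv library of pool 47_25 had 100 counts, or 5.47 CPM, and all other Tconv libraries of the rest of the brain lay between 0 and 0.438 CPM. Tregs there had 0 to 0.335 CPM in BL6 and 0 to 0.0456 CPM in BalbC. The log2 difference was −3.03 ± 1.05 (edgeR adjusted p = 0.0475), it was −0.88 with limma-voom (adjusted p = 0.416) and −2.03 with pools as a block in edgeR (adjusted p = 0.459). Without pool 47_25, or without the BL6 HFD pool 38_42, the gene did not pass the filter on counts and was not tested. Of the 13 refits that left out 1 pool and still held the gene, 7 lost the call (edgeR adjusted p = 0.0270 to 1 over the 13). They were those without the BL6 pools 01_05 (log2 −2.64), 77_80 (−3.10) and 33_37 (−3.14) and without the BalbC pools 37_41 (−3.02), 32_36 (−3.10), 42_46 (−3.13) and 26_31 (−3.02).

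*Mndal* had a log2 difference of −0.41 ± 0.16 between Tregs and Tconv of the rest of the brain (edgeR adjusted p = 0.0676) and *Pyhin1* one of −0.21 ± 0.18. *Aim2* was at 4.91 to 23.3 CPM in BL6 and 10.6 to 38.5 CPM in BalbC Tconv, and its Treg libraries ranged from 0 to 70.7 CPM on either side of these (log2 0.02 ± 0.87). The number of all genes called moved with the BalbC SD pools, of which this Treg group has 2: it was 2662 with all pools, 1055 without 42_46 and 1188 without 37_41, and without 37_41 the members called fell from 3 to 1. With pools as a block 642 genes and 1 member were called. Macrophages also express *Ifi204*, and the paper's gate for CD4+ cells of the brain leaves out cells with CD11b, CD11c, CD14 or F4/80. Of 9 macrophage and monocyte markers, all found, *Lyz2* was at 0 in all 7 BL6 Tconv libraries of the rest of the brain, *Csf1r* at 0 to 0.217 CPM and *Adgre1* at 0, and the summed level of 931 to 1583 CPM was made by *Ly6c2* and *Ccr2*, which activated T cells also express. In BL6 Tregs of the rest of the brain the sum was 0.122 to 259 CPM, with *Lyz2* and *Csf1r* at 0 in all 8. *Cd14* was at up to 2.63 CPM in BL6 Tconv there and at up to 14.8 CPM in BL6 Tregs. In BalbC the sum was 419 to 637 CPM in Tconv and 38.2 to 529 CPM in Tregs, with *Lyz2* at up to 8.64 and 13.1 CPM. *Csf1r* was at up to 25.8 CPM in BalbC Tconv and 23.5 CPM in BalbC Tregs, and *Cd14* at up to 5.28 CPM and at 0. The part of these cells in the result was not tested.

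Of the 7 other family genes tested in this comparison, a list that also holds the uncharacterized *A430093F15Rik*, 3 were lower in Tregs of the rest of the brain and 0 higher. The log2 differences were −1.12 ± 0.22 for *Ifi208*, −6.68 ± 1.29 for *Ifi202b* and −2.18 ± 0.61 for *Ifi211* (edgeR adjusted p = 0.00111, 0.00253 and 0.0150). The fitted value of *Ifi202b* is set against Tregs that are all at 0, and the gene passed the filter on counts through Tconv alone, so nothing is read from its call. The list had a median log2 difference of −1.12 and the 6 members one of −0.48, beside −0.35 over all genes tested.

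Lists of related genes were counted in the same comparison. Of 16 tested genes of DNA sensing and the inflammasome, 5 were higher in Tregs of the rest of the brain and 0 lower, where 716 of 13918 genes at large were higher, with a median log2 difference of 0.55. *Samhd1*, which breaks down the nucleotides that DNA is made from, rose by 1.20 ± 0.11 and *Sting1*, the adaptor that relays the DNA signal, by 1.21 ± 0.14 (edgeR adjusted p = 2.04e-08 and 1.23e-06). *Casp8* rose by 0.52 ± 0.12 and *Rela*, a subunit of NFκB, by 1.34 ± 0.33 (edgeR adjusted p = 0.00428 and 0.00669). Of 26 interferon genes 3 were higher and 0 lower (median 0.21). Among them *Bst2*, a membrane protein that tethers virus particles, rose by 1.38 ± 0.24 and the receptor chain *Ifngr1* by 0.70 ± 0.15 (edgeR adjusted p = 2.75e-04 and 0.00229). In BL6 *Bst2* ran from 101 to 162 CPM in Tconv and 129 to 461 CPM in Tregs, with overlap. In BalbC it ran from 3.61 to 18.5 CPM and 48.6 to 94.9 CPM, without overlap. Within BL6 and within BalbC 2 and 5 DNA sensing genes were called higher, with median log2 differences of 0.14 and 0.77. For interferon genes 1 and 3 were called higher, with medians of −0.05 and 0.58. Of all genes 7.72% and 9.84% were called. Whether these lists differ by strain was not tested. In the Slam cluster, which had a median of −0.14 over 7 genes, *Ly9* rose by 1.06 ± 0.27 and *Cd48* fell by 0.48 ± 0.11 (edgeR adjusted p = 0.00888 and 0.00359). The most abundant gene of each list over the 59 libraries was *Samhd1* (median 241 TPM), *Ifi27l2a* (3602 TPM) and *Cd48* (841 TPM).

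**Figure D4:**
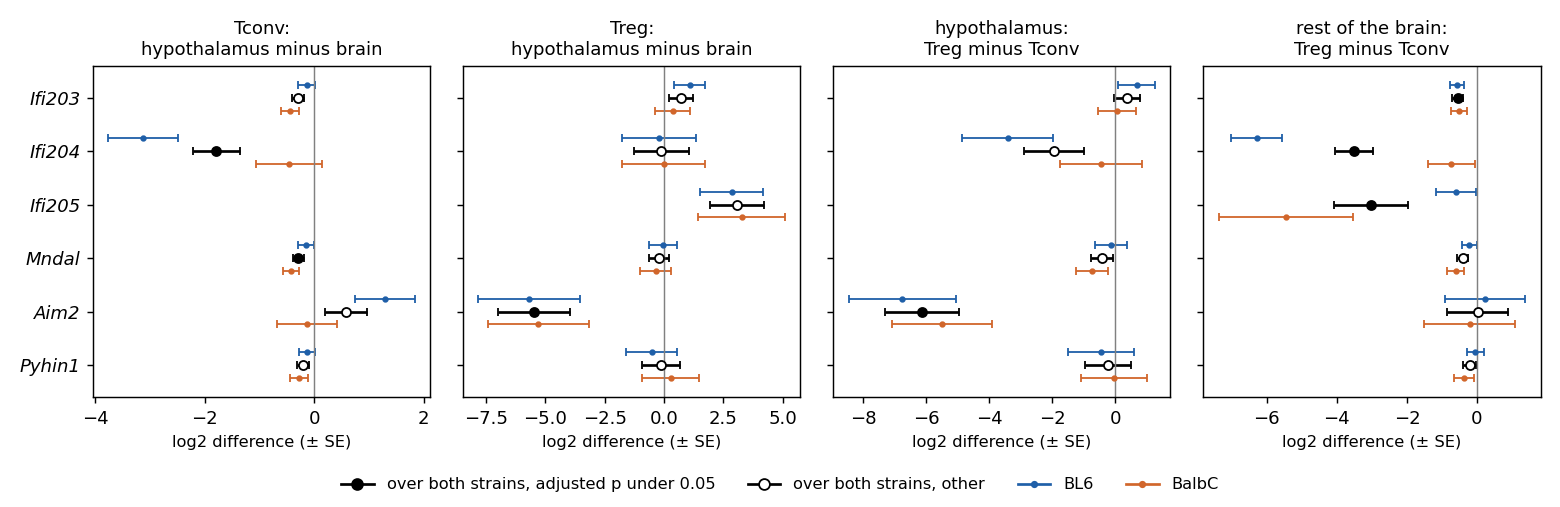
Log2 difference (points) with its standard error (lines) of each chosen gene in the 4 comparisons of tissues and cell types, over both strains in black, filled where the adjusted p was under 0.05, and within BL6 and within BalbC in color. *Ifi204* has a wide gap between BL6 (−6.29) and BalbC (−0.73) in the comparison of cell types in the rest of the brain, and *Aim2* is low in hypothalamic Tregs in both strains.

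In the hypothalamus, *Aim2*, the inflammasome sensor, was the member that edgeR called between Tregs and Tconv. It was found in all 16 Tconv libraries and was at 0 in most Tregs, in both strains. *Ifi204*, *Mndal*, *Ifi203* and *Pyhin1* did not pass the test, and *Ifi205* had too few counts to be tested. Of the 5 members tested, 1 was called lower in Tregs and 0 higher, where 32.6% of all genes were called lower and 33.4% in either direction, and nothing is read from the members' count. DESeq2 called 2 of the 5 and 4821 of all 11251 genes, and limma-voom 4 of the 5 and 7288 of all genes. The median log2 difference over all genes tested was −1.48, and over the 5 members −0.42.

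In hypothalamic Tconv, *Aim2* was at 15.4, 28.4, 16.8 and 58.0 CPM in BL6 HFD and at 34.2, 30.8, 16.8 and 31.8 CPM in BL6 SD pools. BalbC HFD pools had 7.19, 2.77, 23.4 and 28.9 CPM and BalbC SD pools 52.1, 26.4, 3.46 and 22.3 CPM. All 16 Tconv libraries held the transcript. In hypothalamic Tregs, all 4 BL6 HFD pools were at 0 and the BL6 SD pools at 0, 0.580, 34.0 and 1.90 CPM. BalbC HFD Tregs had 0, 78.5, 24.5 and 9.61 CPM, and all 4 BalbC SD pools were at 0. The highest Tregs, 34.0 CPM in pool 62_66 and 78.5 CPM in pool 15_21, lay within or above the Tconv range, so that the cell types overlapped.

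*Aim2* fell by 6.13 ± 1.17 on the log2 scale in hypothalamic Tregs (edgeR adjusted p = 3.31e-04), with −6.76 ± 1.71 within BL6 and −5.49 ± 1.59 within BalbC. Without the 2 libraries that stand apart the log2 difference was −6.07 (edgeR adjusted p = 3.55e-04), and without the 4 it was −5.92 (edgeR adjusted p = 0.00124). *Ifi204* had a log2 difference of −1.93 ± 0.95 (edgeR adjusted p = 0.125), −3.41 ± 1.44 within BL6 and −0.45 ± 1.3 within BalbC. These differ between the strains by 2.96 ± 1.88, a difference for which 4.88% of all genes were called. This count of 549 was 2 with pools as a block, 206 to 350 without pool 11_15 (206), 33_37, 72_76 (271), 67_71 (275), 43_47 (322) or 67_66 (350) of BL6, and 335 without 32_36, 343 without 11_14 and 349 without 42_46 of BalbC. *Mndal* (−0.42 ± 0.36), *Ifi203* (0.37 ± 0.41) and *Pyhin1* (−0.23 ± 0.74) had differences near their errors. With pools as a block, 5796 genes in place of 3757 and 2 members in place of 1 were called, and 2 members without the 4 libraries.

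Among the other family genes 0 of 6 tested were called in this comparison by edgeR, with *Ifi208* at −1.79 ± 0.74 (edgeR adjusted p = 0.0599) and a median of −1.66. *Ifi202b*, at 0 in all BL6 libraries of this comparison, got no standard error in the fit over both strains. Within BalbC its log2 difference was −11.68 ± 2.06, set against Tregs at 0. Of the DNA sensing genes 1 of 16 was higher, *Samhd1* by 0.97 ± 0.27 (edgeR adjusted p = 0.00653), and 0 lower, where 84 of 11251 genes at large were higher. Of 26 interferon genes 1 was higher, *Ifi27l2a* by 1.40 ± 0.29 (edgeR adjusted p = 5.83e-04), while *Ifi44* and *Oasl2* fell, at −5.72 ± 1.40 and −4.20 ± 1.60 (edgeR adjusted p = 0.00246 and 0.0426). In the Slam cluster *Slamf7* and *Cd244a* fell, at −12.24 ± 1.37 and −5.96 ± 1.5 (edgeR adjusted p = 2.96e-06 and 0.00333), with a median of −0.34 over 7 genes. *Slamf7* was at 0 in all 16 hypothalamic Treg libraries, and *Cd244a* had a median of 0 in hypothalamic Tconv of both strains and 0 to 0.119 CPM in BL6 Tregs. Both genes passed the filter on counts through Tconv alone, so nothing is read from their calls.

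The tissues were compared within each cell type. In Tconv, *Ifi204* was lower in the hypothalamus than in the rest of the brain, and *Mndal* by a smaller amount, while *Aim2* was not lower. *Ifi203* and *Pyhin1* lay near the threshold or above it, and *Ifi205* was not tested. Of the 5 members tested, 2 were called lower in hypothalamic Tconv and 0 higher, where 14.6% of all genes were called lower and 22.8% in either direction, with a median log2 difference of −0.10 over all genes and −0.29 over the members.

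*Ifi204* fell by 1.79 ± 0.43 on the log2 scale in hypothalamic Tconv (edgeR adjusted p = 0.00291). In BL6, 5 of the 8 hypothalamic libraries, the 4 HFD ones and 1 SD one, were under 0.5 CPM, and the 7 of the rest of the brain were at 5.78 CPM or more. On SD alone the BL6 median was not lower in the hypothalamus, at 26.6 against 19.5 CPM, while on HFD it was 0.441 against 22.6 CPM. The BalbC libraries overlapped, at 36.5 to 68.3 and 38 to 63.5 CPM. Within BL6 the log2 difference was −3.12 ± 0.64 and within BalbC −0.46 ± 0.60, which differ by 2.65 ± 0.88. Over all genes 11.1% were called for this difference between strains, a count of 1420 that fell to 224 with pools as a block, where the difference of *Ifi204* was 1.68. Of the 5 members 1 was called for it, and 0 with the block, with DESeq2 size factors in edgeR or with limma-voom. Nothing is read from this, as the genes were chosen by strain. Over both strains the block gave −1.16 (edgeR adjusted p = 0.0339, against 2.42e-04 to 0.00464 in the other settings), and it lowered the count of all genes from 2918 to 919 and that of the members to 1.

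*Mndal*, by contrast, was at 405 to 725 CPM in hypothalamic Tconv and at 448 to 812 CPM in Tconv of the rest of the brain, with much overlap. It fell by 0.29 ± 0.10 (edgeR adjusted p = 0.0449), which did not outlast small changes. With pools as a block the log2 difference was −0.17 with an edgeR adjusted p = 0.454 (0.0204 to 0.0694 in the other settings), and 12 of the 20 refits without 1 pool lost the call. These were the refits without the BL6 pools 38_42 (−0.21), 11_15 (−0.24), 01_05 (−0.27), 33_37 (−0.28), 43_47 (−0.28) and 06_10 (−0.26) and without the BalbC pools 37_41 (−0.27), 47_25 (−0.29), 15_21 (−0.31), 32_36 (−0.25), 11_14 (−0.27) and 26_31 (−0.26). Within BL6 and within BalbC the log2 differences were −0.15 ± 0.14 and −0.42 ± 0.15 for *Mndal* and −0.14 ± 0.15 and −0.44 ± 0.16 for *Ifi203*. Within BalbC both were called (edgeR adjusted p = 0.0354 and 0.0375), as were 26.8% of all genes. Within BL6 neither was called, where 0.00781% of all genes were. Over both strains *Ifi203* had a log2 difference of −0.29 ± 0.11 (edgeR adjusted p = 0.0552), *Pyhin1* one of −0.21 ± 0.11 and *Aim2* one of 0.58 ± 0.39.

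Around these sensors, 4 of 16 genes of DNA sensing were higher in hypothalamic Tconv and 2 lower, where 1054 of 12799 genes at large were higher, with a median log2 difference of 0.13. *Rela* rose by 0.95 ± 0.18 and *Ddx41*, a helicase that senses DNA, by 0.72 ± 0.19, while *Pycard*, which encodes the adaptor Asc, fell by 0.70 ± 0.15 and *Casp1*, the protease of the inflammasome, by 0.41 ± 0.11 (edgeR adjusted p = 3.81e-04, 0.00547, 9.52e-04 and 0.00647). Of 26 interferon genes 5 were higher and 1 lower (median 0.32), with *Bst2* up by 1.15 ± 0.23, the transcription factors *Stat2* by 0.93 ± 0.20 and *Irf9* by 0.69 ± 0.16 and *Ifi27l2a* down by 0.73 ± 0.13 (edgeR adjusted p = 5.40e-04, 0.00144, 0.00226 and 2.96e-04). In the Slam cluster *Cd48* fell by 0.47 ± 0.10 (edgeR adjusted p = 8.57e-04) and 0 of 7 rose (median −0.32). The skew to BalbC was one of genes at large, as 0.00781% of all genes were called within BL6 and 26.8% within BalbC, and it was not tested for these lists. Within BalbC 5 DNA sensing genes were called higher and 4 lower, and 10 interferon genes higher and 1 lower. Within BL6 0 genes of either list were called. The median log2 difference within BL6 and within BalbC was −0.06 and 0.29 for DNA sensing and −0.04 and 0.65 for interferon genes. *Irf9* had medians of 154 CPM in the rest of the brain and 137 CPM in the hypothalamus in BL6, and of 59.6 and 194 CPM in BalbC. Markers of other cells differed too. The microglial markers summed to 82.1 to 641 CPM in BalbC Tconv of the rest of the brain and 57.4 to 120 CPM in the hypothalamus. In BL6 these sums were 68.9 to 111 and 67.3 to 222 CPM. In BalbC *P2ry12* had medians of 9.46 CPM and 0, and *Csf1r* was at up to 25.8 CPM and at 0. The part of such cells was not tested. Of the 7 other family genes 0 were called by edgeR, with a median of −0.25.

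In Tregs, *Aim2* again differed, with lower levels in the hypothalamus than in the rest of the brain. All 6 members were tested, 1 was called lower and 0 higher, where 11.3% of all genes were called lower and 11.3% in either direction. The median log2 difference was −1.0 over all genes and −0.12 over the members. In Tregs of the rest of the brain *Aim2* was at 70.7, 26.8, 25.7 and 30.7 CPM in BL6 HFD and at 19.1, 0, 1.10 and 0 CPM in BL6 SD pools. BalbC HFD pools had 29.6, 1.66, 26.2 and 0.161 CPM, and BalbC SD pools 45.2 and 0.448 CPM. All BL6 HFD pools were high in the rest of the brain and at 0 in the hypothalamus. BalbC SD pools were at 0 in the hypothalamus too, and the remaining groups held high and low libraries.

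*Aim2* fell by 5.48 ± 1.51 on the log2 scale in hypothalamic Tregs against those of the rest of the brain (edgeR adjusted p = 0.0192). The difference was −5.40 without the 2 libraries that stand apart and −5.32 without the 4 (edgeR adjusted p = 0.0206 and 0.0455). With pools as a block the log2 difference was −3.88 with an edgeR adjusted p = 0.641 (2.42e-04 to 0.0455 in the other settings), 0 members were called and 88 genes in place of 1425. At an unadjusted p under 0.05, 1700 genes passed with the block, and 2974 without. Without the BalbC SD pool 37_41 the log2 difference was −4.15 (edgeR adjusted p = 0.107) and the call was lost. The count of all genes was 639 without that pool, 588 without 42_46, 942 without 77_80, 835 without 62_66 and 2342 without 72_76. *Ifi205* had a log2 difference of 3.06 ± 1.14 (edgeR adjusted p = 0.0763) at levels of 0 to 0.809 CPM, *Ifi203* one of 0.72 ± 0.49, *Mndal* one of −0.21 ± 0.44, *Pyhin1* one of −0.12 ± 0.80 and *Ifi204* one of −0.11 ± 1.16. For *Ifi204* the strains differed by 0.20 ± 2.33 here, a difference for which 0.00796% of all genes were called, 1 gene, with 6 for pools as a block and 0 to 10 in refits without 1 pool.

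Of the lists, 0 of 16 DNA sensing genes and 0 of 6 other family genes were called between the tissues in Tregs by edgeR (median log2 −0.49 and 0.31). Of 26 interferon genes *Ifi44* fell by 6.01 ± 1.72 and *Ifngr2* by 5.06 ± 1.57 (edgeR adjusted p = 0.0223 and 0.0331, list median −0.03), and in the Slam cluster *Slamf7* fell by 10.01 ± 2.05 (edgeR adjusted p = 0.00736, list median −0.77). *Slamf7* is set against hypothalamic Tregs that are all at 0. It passed the filter on counts through Tregs of the rest of the brain alone, so nothing is read from its call.

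The diets were compared within each cell type and tissue with strain as a term, to ask whether the family follows the high-fat high-sugar diet. No family gene passed the edgeR test in any of the 4 comparisons. In hypothalamic Tconv, *Ifi204* had the largest difference of the members, and it lay in BL6: the 4 BL6 HFD libraries were all under 0.5 CPM and 3 of the 4 BL6 SD libraries at 13.3 to 81.8 CPM, while the BalbC libraries overlapped. The log2 difference was −3.24 ± 0.66 (unadjusted p = 1.29e-04, edgeR adjusted p = 0.350), −6.47 ± 1.09 within BL6 and −0.01 ± 0.84 within BalbC. The fourth BL6 SD library, of pool 67_66, had 0.307 CPM, and without it the log2 difference was −3.44 with an edgeR adjusted p = 0.00369. DESeq2's Wald test called the gene with all libraries (−3.25, adjusted p = 7.52e-06), and the other settings did not (adjusted p = 0.350 to 0.730 by edgeR and limma-voom).

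By edgeR 0 of the 5 members tested were called in hypothalamic Tconv, as were 0% of 10846 genes, with 607 genes at an unadjusted p under 0.05. DESeq2 called 200 genes and 1 member there, and limma-voom 0. In Tconv of the rest of the brain 0 of 5 members and 0% of 12257 genes were called by edgeR, with 984 at an unadjusted p under 0.05, 141 by DESeq2 and 1 by limma-voom. Within BalbC alone 1.56% of all genes were called there and within BL6 0%, and 0 members were called in either. The BalbC log2 differences were 0.71 ± 0.22 for *Pyhin1*, 0.55 ± 0.24 for *Ifi203* and 0.49 ± 0.20 for *Mndal* (edgeR adjusted p = 0.126, 0.302 and 0.254). In hypothalamic Tregs 0 of 5 members and 0% of 7708 genes were called by edgeR, with 1114 at an unadjusted p under 0.05, 1227 by DESeq2 and 4 by limma-voom. In Tregs of the rest of the brain 0 of 5 members and 0% of 11679 genes were called by edgeR, with 932 at an unadjusted p under 0.05, 797 by DESeq2 and 12 by limma-voom. Without the 2 libraries that stand apart, and without the 4, 0 members and 1 gene were called in hypothalamic Tregs. Single libraries moved the counts of all genes called by edgeR from 0 to at most 1 in hypothalamic Tconv (without 06_10, 33_37 or 67_66 of BL6). In Tconv of the rest of the brain it was 1 without the BL6 pool 67_71 and 4, 6 and 3 without the BalbC pools 15_21, 32_36 and 16_20.

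In hypothalamic Tregs the count was 9, 1, 11 and 11 without the BalbC SD pools 37_41, 32_36, 42_46 and 06_10, and 1 and 7 without the BL6 SD pools 43_47 and 62_66. In Tregs of the rest of the brain it was 2 without the BL6 SD pool 62_66 and 30 without the BalbC SD pool 37_41. No member was called in these refits of Tregs. With DESeq2's size factors in edgeR, the median log2 difference over all genes in hypothalamic Tregs moved from 0.24 to 0.04.

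Within strains the diet values of *Aim2* in Tregs are a description and were not called. In the hypothalamus it was at 0 in the 4 BL6 HFD and the 4 BalbC SD libraries, and at up to 34.0 CPM in BL6 SD and up to 78.5 CPM in BalbC HFD libraries, where 1 library of each group was also at 0. In the rest of the brain BL6 Tregs had the reverse order, with 25.7 to 70.7 CPM on HFD and 0 to 19.1 CPM on SD, and BalbC Tregs there had a log2 difference of −0.67 ± 2.48. The fitted log2 differences in hypothalamic Tregs were −10.37 ± 4.02 within BL6 and 11.85 ± 4.27 within BalbC, and 0.74 over both, and they are set against groups at 0. Of the BL6 SD libraries, pools 11_15 and 43_47, which stand apart by *Foxp3*, had *Aim2* at 0 and 0.580 CPM, and pool 62_66 alone was above 1.90 CPM. The groups at 0 hold pools 06_10 (BL6 HFD) and 32_36 (BalbC SD), which stand apart too.

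None of the genes of the DNA sensing, interferon and Slam lists, nor of the other family genes, was called for diet by edgeR in the 4 comparisons. The members' median log2 difference was −0.08 in hypothalamic Tconv, 0.19 in Tconv of the rest of the brain, 0.49 in hypothalamic Tregs and 0.29 in Tregs of the rest of the brain. Over all genes it was −0.01, −0.03, 0.24 and 0.17.

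The genes whose levels were most like those of the members were sought among 11926 genes with a mean of at least 1 CPM, by Pearson's r of log2(CPM + 1) over the 59 libraries, which share strain, cell type, tissue and depth. For *Ifi204* they were *Podnl1* (0.74), *Xist* (0.73), a transcript of female cells, and *Slc2a4rg-ps* (0.72). *Mndal* was most like *Dock2* (0.70), *Il2rg* (0.69) and *Cd53* (0.68), *Ifi203* like *Ostc* (0.79), *Tra2b* (0.76) and *Cd47* (0.75), *Aim2* like *Inpp5b* (0.72), *Idi1* (0.71) and *Eola1* (0.71), and *Pyhin1* like *Mrps23* (0.83), *Ccng1* (0.83) and *Cd247* (0.82). *Ifi205*, with a mean under 1 CPM, was left out.

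After the mean of each group was taken away, *Ifi203* and *Mndal* were both most like *Ifi27l2a* (r = 0.87 and 0.75), an interferon-inducible gene, ahead of *Psmb8* (0.84), a subunit of the immunoproteasome, and *Ppp1r18* (0.78) for *Ifi203* and of *Ppp1r18* (0.73) and *Dock2* (0.73) for *Mndal*. *Ifi203* and *Mndal* had an r of 0.72 with each other for levels and 0.74 for deviations from the group means. *Pyhin1* was most like *Ccng1* (0.84), *Pole4* (0.83) and *Mrps23* (0.83), *Ifi204* like *Gm20716* (0.66), *Ciapin1* (0.65) and *Atf4* (0.63) and *Aim2* like *Smyd4* (0.62), *Prrt1* (0.56) and *Nupl2* (0.55). Within the family and over all libraries, *Ifi204* was nearest to *Ifi211* (0.60 for levels) and *Pyhin1* to *Ifi214* (0.73), the genes with which they share the most sequence. For deviations from the group means *Pyhin1* was nearer to *Ifi213* (0.69) than to *Ifi214* (0.66). Without the 4 libraries that stand apart, *Ifi204* was still nearest to *Ifi211* (0.67 for levels). *Pyhin1* was then nearest to *Ifi208*, at 0.65 for levels and 0.66 for deviations. Its values were 0.57 and 0.59 with *Ifi214* and 0.49 and 0.43 with *Ifi213*.

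The hypothalamic Treg libraries that stand apart are among the 59, and many of these values rested on them. For deviations, *Ifi203* with *Ifi27l2a* had an r of 0.77 without the 2 and 0.81 without the 4, while *Mndal* with *Ifi27l2a* fell to 0.44 in both cases, *Ifi203* with *Psmb8* to 0.56 and 0.48, with *Ppp1r18* to 0.29 in both, and *Ifi203* with *Mndal* to 0.37 and 0.33. For levels, the 3 genes most like *Mndal* fell to 0.20 to 0.32 without the 2 and those most like *Ifi203* to 0.39 to 0.54. The genes most like *Pyhin1* were at 0.41 to 0.68 for levels and 0.59 to 0.64 for deviations without the 4. Those of *Ifi204* stayed at 0.70 to 0.73 for levels without the 2, and those of *Aim2* at 0.69 to 0.71 without the 4.

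Promoters were read for letters bound by factors of the interferon response. RefSeq promoter windows of 300 bases (GRCm38.p6) were found for 5 of the 6 members. *Ifi204* is missing from the table. The core of the interferon-stimulated response element was searched as GAAANNGAA and the interferon-gamma activated site as TTCNNNGAA, on both strands. The first was in 10 of the 14 windows of the family, which belong to 12 genes, and in 8.56% of all 32851 promoter windows. The second was in 1 of the 14, that of *Ifi202b*, and in 8.30% of all. A match is a description of these letters only. Shown are the 100 bases before the start, 5′ to 3′ on the strand of the gene, with the GAAANNGAA match in capitals, for *Mndal* (minus strand, chr1:173880188-173880287), the inner start of *Ifi203* (minus strand, chr1:173942493-173942592), *Pyhin1* (plus strand, chr1:173630759-173630858), *Ifi214* (minus strand, chr1:173535958-173536057) and an inner start of *Aim2* (plus strand, chr1:173420504-173420603).
Mndal: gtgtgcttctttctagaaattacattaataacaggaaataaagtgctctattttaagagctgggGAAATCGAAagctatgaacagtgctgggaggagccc
Ifi203: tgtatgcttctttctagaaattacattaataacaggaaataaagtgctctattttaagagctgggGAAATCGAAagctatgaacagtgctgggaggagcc
Pyhin1: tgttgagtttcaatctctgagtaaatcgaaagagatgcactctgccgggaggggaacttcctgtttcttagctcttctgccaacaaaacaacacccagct
Ifi214: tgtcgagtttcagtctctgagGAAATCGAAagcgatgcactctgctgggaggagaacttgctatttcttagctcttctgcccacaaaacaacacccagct
Aim2: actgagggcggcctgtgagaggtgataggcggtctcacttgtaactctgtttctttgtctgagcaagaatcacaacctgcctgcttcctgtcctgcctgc
The match starts 36 bases before the start in *Mndal*, 35 in *Ifi203* and 79 in *Ifi214*, and the windows of *Pyhin1* and *Aim2* hold none. The outer start of *Ifi203*, not shown, has none in its 300 bases, and the second window of *Mndal* has a match 53 bases before its start. *Ifi205* has 2 matches in its 300 bases, 134 before the start and 24 after it.

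In the pilot libraries *Ifi204* was seen in BalbC and at 3 counts or fewer in the others, with 1 library per group and no test. Naive BalbC T cells had 75 CPM on HFHSD (exact Poisson 95% interval 63.9 to 87.4) and 128 CPM (117 to 141) on regular diet. BalbC Tregs had 151 CPM (134 to 169) on HFHSD and 8.10 CPM (3.88 to 14.9) on regular diet. The BL6 libraries had 0 counts in ob/ob CD4+ and Bl6 CD25hi cells, 1 count in ob/ob CD25hi and 3 counts in Bl6 CD4+ cells, a library with Treg markers at 1434 CPM against 362 CPM in ob/ob CD4+ cells, at floors of 1.74, 0.562, 30.0 and 13.6 CPM. The last 2 floors lie above the level of BalbC Tregs on regular diet, which these libraries could not have shown, and the Bl6 CD25hi library held more of microglial than of T cell markers, with Treg markers at 2.44 CPM against its label. All pilot mice were labelled female. *Xist* was at 0 in the Bl6 CD4+ and the ob/ob CD25hi libraries, where Y-linked genes summed to 958 and 120 CPM, against that label.

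*Aim2* had 203 CPM (179 to 230) in BalbC Tregs on regular diet and 0 counts in the other 3 BalbC libraries. It had 83.4 CPM (70.3 to 98.1) in ob/ob CD4+ and 30.6 CPM (26 to 35.6) in Bl6 CD25hi cells, the library with 33190 CPM of microglial and 87.4 CPM of T cell markers. *Mndal* ran from 10 to 609 CPM over the 8 pilot libraries, *Ifi203* from 77 to 944 CPM and *Pyhin1* from 0 to 388 CPM, and *Ifi205* had 0 counts in all 8. *Ifi213*, under its older name *Pydc4*, was at 59 CPM (48.1 to 71.7) in ob/ob CD4+ cells at 0 counts in the other 3 BL6 libraries and at 0 to 8.28 CPM in the BalbC libraries.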

How the data were processed

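The authors mapped the pilot libraries with BWA and counted reads per gene symbol with HTSeq (mm10), and the deposited pilot values were used as raw counts. For the 59 libraries the authors deposited Salmon estimated counts and TPM per RefSeq name. The deposited estimated counts were summed over the names of a gene, rounded for the tests, and the deposited TPM were summed likewise. The labels give no versions of these tools. In the pilot 82.9% to 99.6% of reads lay on no gene.

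A gene was tested if the number of libraries holding over 10 counts of it reached the size of the smallest group, with the edgeR quasi-likelihood test on TMM-scaled counts and Benjamini-Hochberg adjustment at 0.05. Alternatives were DESeq2 size factors in edgeR, the DESeq2 Wald test, limma-voom with sample quality weights, a filter of more than 10 counts in total, mouse pools as a block, each library or pool left out, and the libraries that stand apart left out. Pools were read from the labels, of which 67_66 and 47_25 have a second number below the first and may be misprints, so that the block and the refits without pools rest on labels in doubt. Deviations from group means of the same pool had a median r of 0.00386 between cell types (27 pairs) and −0.000602 between tissues (19 pairs), with 0 pairs over 0.1. The code was tested on simulated data with less spread between libraries than the real ones have. How the tests perform at the spread of these libraries was not tested.

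Named are the 6 members, the other family genes, up to 4 called genes and the most abundant gene of each list, and the 3 genes most like each member. Some values that fall under this rule are not reported here. Members and lists were chosen with earlier results of these data known. Used were R 4.3.3, edgeR 4.0.16, DESeq2 1.42.0, limma 3.58.1, Python 3.11.15, numpy 2.4.6, pandas 2.3.3, scipy 1.17.1 and matplotlib 3.10.9.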

Additional observations from a re-analysis of the deposited data

Results flagged for a closer look

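Values that stood out from their group were counted over 64 groups tested, of which 9 held one, and chance alone would mark about 1 in 20 groups. *Aim2* was high at 34.0 CPM in hypothalamic Tregs of BL6 SD pool 62_66, at 70.7 CPM in Tregs of the rest of the brain of BL6 HFD pool 21_25 and at 19.1 CPM in those of BL6 SD pool 01_05. *Ifi203* was high at 1866 CPM in hypothalamic Tregs of BalbC SD pool 42_46, where *Pyhin1* was high too at 1819 CPM, and low at 97.8 CPM in Tregs of the rest of the brain of BL6 SD pool 67_71. *Ifi205* was at 0.133 CPM in hypothalamic Tregs of BalbC HFD pool 11_14. *Mndal* was high at 1812 CPM in hypothalamic Tregs of BL6 HFD pool 33_37, and *Pyhin1* at 481 CPM in hypothalamic Tconv of BalbC HFD pool 15_21. The difference of *Ifi204* between strains, BalbC minus BL6 on the log2 scale, was 2.65 for the tissues in Tconv and 5.56 for the cell types in the rest of the brain. Both are listed for their edgeR call, from which nothing is read, as the genes were chosen by strain. With pools as a block neither was called.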

How the results depend on the processing

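Groups held 2 to 4 libraries of pooled mice, strain went with sex, and 4 hypothalamic Treg libraries had *Foxp3* under 5 CPM. Where other settings moved a result the cause was not tested, and leaving out the 2 or the 4 libraries that stand apart was chosen after the data had been seen. DESeq2's Wald test called 200 genes (1 member), 141, 1227 and 797 for diet in hypothalamic Tconv, Tconv of the rest of the brain, hypothalamic Tregs and Tregs of the rest of the brain. It called 3555 genes for tissue in Tregs, 2 members for cell type in the hypothalamus and, for the strain differences, 2138 (tissue, Tconv), 2527 (tissue, Tregs), 3111 (cell type, hypothalamus) and 2205 (cell type, rest of the brain). The log2 difference of *Ifi204* for diet in hypothalamic Tconv was −3.25 with it (adjusted p = 7.52e-06).

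With limma-voom, 1, 4 and 12 genes were called for diet in Tconv of the rest of the brain, hypothalamic Tregs and Tregs of the rest of the brain, 5466 for tissue in Tregs, 7288 (4 members) for cell type in the hypothalamus, and 105 and 4 for the strain differences of tissue in Tregs and of cell type in the hypothalamus. *Ifi205* had −0.88 for cell type in the rest of the brain. The filter of more than 10 counts in total gave 1 and 54 genes for diet in Tconv of the rest of the brain and hypothalamic Tregs, 5170 (1 member) for tissue in Tconv, 6 for the strain difference of tissue in Tregs and 4025 for cell type in the rest of the brain, and *Mndal* had −0.25 for tissue in Tconv. DESeq2 size factors gave 3 for the strain difference of tissue in Tregs.

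Pools as a block gave 919 genes (1 member) for tissue in Tconv, 88 (0 members) for tissue in Tregs, 5796 (2 members) for cell type in the hypothalamus and 642 (1 member) for cell type in the rest of the brain. The strain differences gave 224, 6, 2 and 158 in the same order. With the block, *Ifi204* had −1.16 and *Mndal* −0.17 for tissue in Tconv, *Aim2* −3.88 for tissue in Tregs, and *Ifi203* −0.51 and *Ifi205* −2.03 for cell type in the rest of the brain, and the strain difference of *Ifi204* for tissue was 1.68. Without the 2 libraries 1 gene was called for diet in hypothalamic Tregs and 3 for the strain difference of tissue in Tregs, and without the 4 there were 1 and 13, with 2 members for cell type in the hypothalamus. Strain ranges that did not overlap numbered 3 on TPM, 5 in SD and 3 in HFD libraries, against 1. The share over all genes was not counted in these settings, so nothing is read from them.

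Leaving out 1 library or pool gave 0 to 1, 0 to 6, 0 to 11 and 0 to 30 genes for diet, in the order above, with *Ifi204* at −3.44 to −2.83. Tissue in Tconv gave 2588 to 3170 genes and 1 to 3 members, with *Ifi204* at −1.95 to −1.53 and *Mndal* at −0.32 to −0.21. Tissue in Tregs gave 588 to 2342 genes and 0 to 1 member, with *Aim2* at −6.54 to −4.15. Cell type gave 3480 to 4576 genes in the hypothalamus, with *Aim2* at −7.04 to −5.93, and 1055 to 3059 genes and 1 to 4 members in the rest of the brain, with *Ifi203* at −0.69 to −0.45, *Ifi204* at −3.83 to −3.21 and *Ifi205* at −3.61 to −2.64. The strain differences gave 1040 to 1686, 0 to 10, 206 to 611 and 488 to 1072 genes.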
